A study of Mus musculus with 12 samples.

Results

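The epithelial cells of 1 mammary tumor (tumor 1, MT1) were set against the epithelial cells of the mammary gland of the same animal (gland 1, MG1), to ask which genes and pathways the tumor cells had lost and gained while they stayed epithelial. A cell was taken as epithelial where it held 2 or more UMIs (unique molecular identifiers, each standing for 1 captured transcript) of Epcam, an epithelial cell adhesion molecule. Of the 21157 cells of the whole table, 8508 came from tumor 1 or gland 1, and 6006 of these passed: 5355 of 7690 tumor cells and 651 of 818 gland cells. The mouse was MMTV-Cre; Brca1 flox/flox, on a mixed C57BL/6 and 129/Sv background, so that gland and tumor share both the Cre and the floxed allele. The MMTV promoter drives Cre mainly in mammary epithelium, and not every gland cell need have recombined. Gland 1 was the fourth pair of mammary glands of an animal that already carried a tumor, no wild-type gland was analysed here, and the labels give no age. Both tissues were digested and depleted of hematopoietic and endothelial cells, and 3′ ends of transcripts were counted by Drop-seq, which pairs single cells with barcoded beads in droplets. Tumor 1 was run as 5 libraries and gland 1 as 2. Because all 7 came from 1 animal, every p-value here measures the spread between libraries of that animal and not between mice.

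The mammary ductal tree has an inner luminal layer, made of secretory cells, which produce milk proteins, and hormone-sensing cells, which carry the estrogen, progesterone and prolactin receptors, and an outer basal layer of contractile myoepithelial cells. Simple keratins such as Krt8 and Krt18 mark luminal cells and Krt5 and Krt14 basal cells. BRCA1 acts in homologous recombination, the repair of broken DNA from an intact copy, and mammary tumors that lack it often keep luminal secretory features beside basal keratins.

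The summed member cells held 2683969 and 575808 UMIs in the gland libraries (576 and 75 cells) and 1085392 to 5102168 in the tumor libraries (505 to 1834 cells). Levels are given as CPM, UMIs per 1000000 UMIs of a library, scaled by TMM. Gland members were deeper, with median UMIs of 3646.5 and 6093 per cell against 1842 to 2971 in the tumor, and had a median of 11 Epcam UMIs against 4 to 6. Just inside the threshold, at 2 Epcam UMIs, lay 839 tumor and 44 gland cells. Just outside it, at 1 UMI, lay 871 and 78. Fibroblast markers summed to 1237 and 1966 unscaled CPM in the gland libraries and to 201 to 312 in those of the tumor. Members with 2 or more stromal marker UMIs were 37.5% and 76.0% of the gland libraries and 7.72% to 14.5% of the tumor libraries. Gland 1 replicate 2, with 75 cells, stood apart with the highest fibroblast sum. The chromosome medians were also computed without it. The gene lists, the shares and the genes given below with a test were also computed without it and without replicate 1. Where this ended a gene's call or moved its printed fold change by more than 1.5 times, the value stands in the same paragraph, unless the gland library that was left held 0 UMIs of the gene. No 2 libraries agreed within sampling noise and at most 2 cell barcodes were shared by a pair.

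Brca1 (chr11:101488764-101551955), the targeted gene, had 18.6, 11.4, 7.78, 10.8 and 10.7 CPM in the tumor libraries and 0 UMIs in both gland libraries. The tumor level was at least 11.4-fold higher (2.02-fold without gland 1 replicate 1) when the gland is set at a floor of 3 counts over the group. Such bounds scale with the gland total, most of which lies in gland 1 replicate 1. Counts of 3′ ends do not report on a floxed internal exon, so this value does not check the labels.

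The cells were clustered without use of their tissue to see what the Epcam gate had gathered. Gland members fell into a luminal secretory-like cluster (251 gland and 22 tumor cells), a luminal hormone-sensing-like cluster (265 and 70) and a basal myoepithelial-like cluster (91 and 2). A fibroblast-like cluster held 24 gland and 210 tumor cells, and an endothelial and mural-like cluster 5 and 42, so 281 members lay in clusters led by stromal genes, called stromal-like below. The 210 tumor members of the fibroblast-like cluster differed from its 24 gland members, with 9809 against 184 CPM of Capza2 and 2469 against 79.6 of Met, genes high in the unnamed tumor clusters, and 14.6 against 1231 of Has1 and 5.30 against 2621 of Cxcl13. The 42 tumor members of the endothelial and mural-like cluster also had 8020 CPM of Capza2 and 1729 of Met. Whether these tumor members were stromal cells, tumor cells with mesenchymal genes or mixed droplets was not tested. The remaining 6 clusters held 5009 tumor cells and 15 gland cells and were left unnamed. Their leading genes were Krt14, Krt6b and Spp1 in cluster 3, Scd1, Wif1, Igfbp5 and Sfrp1 in cluster 5, Top2a and Tpx2 in cluster 8, Cd74, H2-Eb1 and Pmaip1 in cluster 9, Cenpe and Ube2c in cluster 10, and Ifit1, Ifit3 and Mx1 in cluster 11. Most tumor members therefore sat apart from every gland cluster, and the levels below are given against the gland as a whole and, for some lists and genes, against 1 or more of its 3 epithelial classes.

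**Figure D1:**
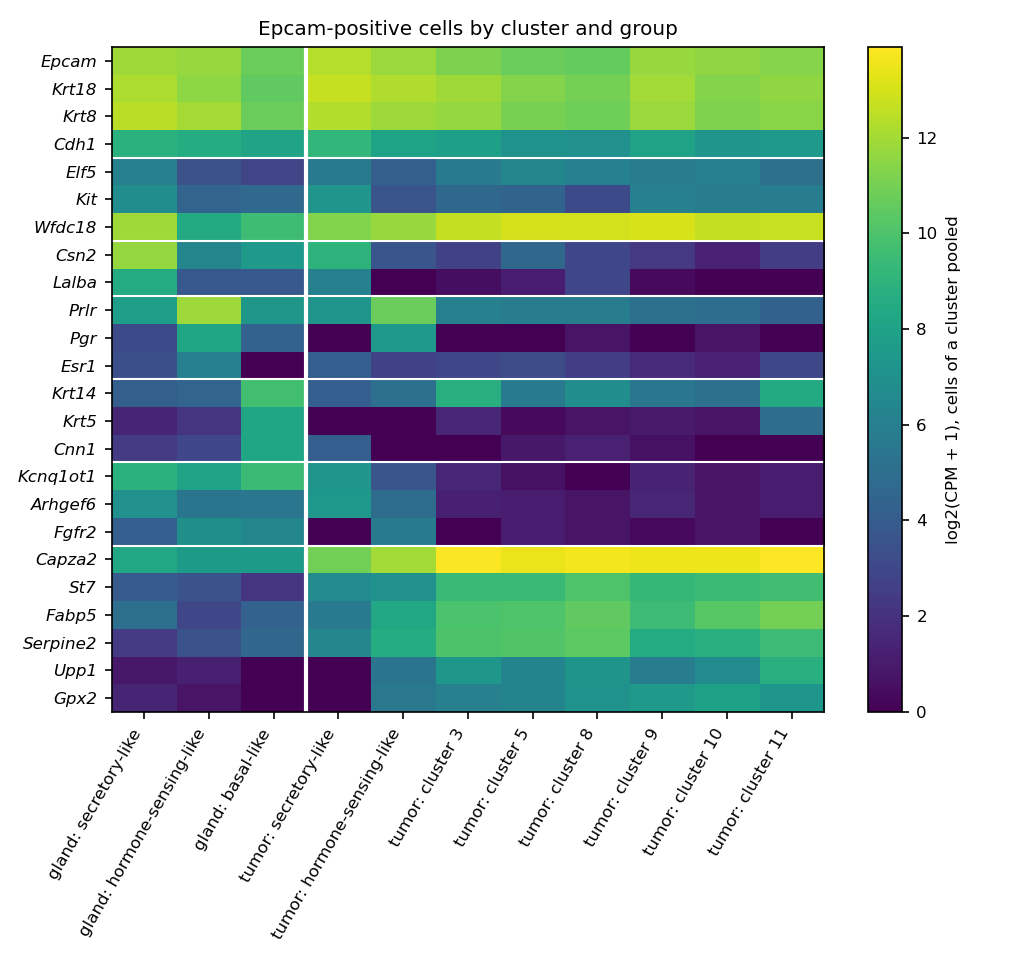
Level of 24 genes, as log2(CPM + 1) of the pooled cells of each cluster, in the 3 epithelial clusters of gland 1 (left of the white line) and in 8 clusters of tumor 1 (right). The upper rows, Epcam, Krt18, Krt8 and Cdh1, keep similar colours across the columns, while Csn2 and Kcnq1ot1 are higher in all 3 gland columns than in clusters 3, 5, 8, 9, 10 and 11 of the tumor, and Capza2 and St7 are lower.

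Among the tumor members, which the Epcam gate chose as epithelial cells, Krt18 was near its gland level and Krt8 and Cdh1 were below theirs. Epcam itself, on which the cells were chosen and which was not tested, had 2429, 2176, 2453, 2442 and 2404 CPM in the tumor libraries and 3821 and 2803 in the gland. Krt18 had 3184, 3362, 3016, 3270 and 2652 CPM against 3870 and 2047, and the tumor libraries lay between the 2 gland libraries (log2 fold change 0.06, SE 0.22, adjusted p 0.828, edgeR's quasi-likelihood test with Benjamini-Hochberg adjustment). Its partner Krt8 had 2490, 2997, 2699, 2709 and 2540 CPM against 4900 and 3494 and was lower in all tumor libraries (log2 fold change -0.64, SE 0.17, adjusted p 0.00565). Cdh1, which encodes E-cadherin of the adherens junction, fell from 447 and 334 CPM to 181, 202, 179, 179 and 189 (log2 fold change -1.08, SE 0.15, adjusted p 5.66e-05). The Krt8 call was lost without gland 1 replicate 1 (-0.34).

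Across 38 tested genes of epithelial adhesion and identity, 9 rose and 13 fell, with a median log2 fold change of -0.22. Of all 11460 genes tested, 29.5% were called higher and 28.0% lower by the same rule, with a median of 0.06, so these counts are near those of genes in general. Against basal-like gland cells alone 14 were higher and 5 lower (median 0.87, beside 21.5% and 14.3% of all genes tested against that class). The list changed in composition more than in sum, since its summed level was 4979 and 5741 CPM in the gland and 4752 to 5261 in the tumor. Claudins, the strand proteins of tight junctions, moved in opposite directions. Cldn3 had 513, 655, 683, 665 and 652 CPM against 242 and 127 in the gland (log2 fold change 1.74, SE 0.23, adjusted p 5.39e-05), and Cldn4 had 149.9, 321, 194, 157 and 173 against 1149 and 977 (log2 fold change -2.42, SE 0.24, adjusted p 5.98e-06). No library overlapped between tissues for either gene, as was so for 64.4% of all genes tested. Perp, a desmosomal protein, rose (1.54 on the log2 scale), as did the transcription factors Ehf and Ovol1. The junction proteins Cldn7, Tjp1 and Jup fell. The calls of the splicing factor Esrp1, higher at 0.66, and of Pkp3, lower at -0.61, were lost without gland 1 replicate 2 (0.41 and -0.18). Tjp1, at -1.07, was not called without replicate 1 (-0.62), where Cldn3 had 2.36 and Esrp1 1.31.

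Keratins moved in both directions against the gland as a whole, with 5 of 16 tested genes higher and 6 lower (median -0.23). These counts are near the 29.5% and 28.0% of all genes tested that were higher and lower. Against secretory-like gland cells 9 of 14 were higher and 3 lower (median 2.22, beside 27.1% and 23.4% of all genes tested against that class). Against basal-like cells 7 of 15 were higher and 3 lower (median 1.02, beside 21.5% and 14.3%). Krt23 had 118, 131, 119, 141 and 123 CPM in tumor libraries and 10.9 and 3.48 in the gland (log2 fold change 3.81, SE 0.27, adjusted p 6.24e-07). Krt6b, a keratin of activated stratified epithelium, had 0 UMIs in the gland and 7.99, 8.21, 10.5, 6.60 and 17.6 CPM in the tumor, at least 11.1-fold higher (1.97-fold without gland 1 replicate 1). Krt15 went the other way, from 190.1 and 272 CPM to 11.5, 65.7, 15.8, 16.1 and 25.4 (log2 fold change -3.09, SE 0.45, adjusted p 0.000103), although against gland 2, the gland of another mouse with the same strain label, its log2 fold change was -0.20. For Krt23 the log2 fold change was 5.20 without gland 1 replicate 1.

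The basal keratins parted from each other. Krt5 fell from 30.1 and 47.0 CPM to 2.66, 1.37, 6.22, 0.792 and 0.409 (log2 fold change -3.77, SE 0.57, adjusted p 0.000133). Krt14 had 133, 134, 147, 109 and 129 CPM against 118 and 172, with overlapping libraries (log2 fold change -0.12, SE 0.18, adjusted p 0.598). Similar totals hid different cells: pooled Krt14 was 826 CPM in the basal-like gland class against 17.4 and 22.0 in the secretory-like and hormone-sensing-like classes, whereas in the tumor it was 432 in cluster 3, 359 in cluster 11 and 42.8 in cluster 9. The share of members holding both a luminal keratin (Krt8 or Krt18) and a basal one (Krt5 or Krt14), after each cell was thinned to 1000 UMIs, was 6.68% to 7.52% in tumor libraries and 6.42% and 10.7% in the gland (difference -1.55 points, p = 0.286, two-sided exact permutation test over 21 arrangements). Without thinning the shares were 11.8% to 14.97% and 15.8% and 36.0%. Cells with no Epcam UMI and 5 or more stromal marker UMIs, called stromal-marker cells below, were also counted. Their thinned share was 0.935% in the 535 of the tumor and 1.41% in the 71 of the gland. Their median depths were 2374 and 2526 UMIs. Whether those of the tumor were stromal cells or tumor cells with mesenchymal genes was not tested.

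The hormone-sensing program had the lowest median of the 27 gene lists. Of 15 tested genes of this list, 14 fell and none rose, with a median log2 fold change of -4.37. Against secretory-like gland cells 8 of 13 were lower and 1 higher (median -1.63, beside 23.4% and 27.1% of all genes tested against that class). Against basal-like cells 6 of 13 were lower and 1 higher (median -0.55, beside 14.3% and 21.5%). Against hormone-sensing-like cells all 15 were lower (median -4.77). Prlr, the prolactin receptor, had 39.9, 70.7, 72.3, 61.8 and 63.1 CPM in the tumor libraries against 2242 and 1022 in the gland (log2 fold change -4.71, SE 0.26, adjusted p 9.00e-08). Pgr, the progesterone receptor, had 0.887, 3.19, 1.75, 1.85 and 3.28 CPM against 167 and 97.5 (log2 fold change -5.93, SE 0.28, adjusted p 4.00e-08). Esr1, the estrogen receptor, had 4.44, 4.11, 5.45, 6.34 and 4.92 CPM against 39.3 and 33.1 (log2 fold change -2.81, SE 0.24, adjusted p 2.43e-06). For all 3 receptors each tumor library lay below both gland libraries. In such sums fewer cells of a type and less RNA per cell cannot be told apart. The secreted signals Wnt5a and Wnt4 had log2 fold changes of -6.06 and -3.91, with Wnt5a at 44.7 CPM in hormone-sensing-like and 36.0 in basal-like gland cells. The lineage factors Foxa1, Tbx3, Gata3 and Cited1 fell too. Tph1, which makes serotonin from tryptophan, went from 110.3 and 595 CPM to 0.887, 5.47, 1.75, 2.38 and 3.28 (log2 fold change -6.94, SE 0.56, adjusted p 1.37e-06), with 375 CPM in hormone-sensing-like gland cells against 29.7 and 16.4 in the other classes. Log2 fold changes without gland 1 replicate 1 were -3.98 for Prlr, -7.73 for Tph1 and -4.50 for Wnt4, and without replicate 2 -5.31 for Tph1 and -3.19 for Wnt4.

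The same loss showed cell by cell. Among cells thinned to 1000 UMIs, 4.75% to 6.71% of tumor members held a UMI of Prlr, Esr1 or Pgr, against 49.5% and 32.0% of gland members (difference -35.1 points, p = 0.0476, two-sided exact permutation test, the smallest p that 5 against 2 libraries allow, and 0.0952 after adjustment over the 4 shares). Unthinned shares were 8.51% to 16.5% and 67.4% and 61.3%. The stromal-marker cells, with 0 Epcam UMIs and 5 or more stromal marker UMIs, gave 1.12% in the tumor and 18.3% in the gland. The fibroblast-like gland members had 30.6 CPM of Esr1, against 64.1 in hormone-sensing-like, 9.60 in secretory-like and 0 in basal-like gland cells. Their Prlr level was 67.4 CPM, against 3743, 208.5 and 163.8 in the same classes. Whether receptor UMIs in the stromal-marker cells were expressed there was not tested, so their share is not a known receptor-free background. The 70 tumor members of the hormone-sensing-like cluster were an exception, with 78.6% holding a receptor UMI and a pooled Prlr level of 1683 CPM, against 90.2% and 3743 in the gland cells of that cluster.

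Contractile basal genes were lower against the gland as a whole, in which 91 members were basal-like against 2 in the tumor. Of 19 tested basal myoepithelial genes, 14 fell and 3 rose, with a median of -3.09, and against basal-like gland cells alone 16 fell and 2 rose (median -6.03). Against the luminal classes fewer of the 19 genes had enough counts to be tested, and genes low on both sides dropped out. Of those tested, 5 of 9 were higher and 3 lower against secretory-like cells (median 1.23, beside 27.1% and 23.4% of all genes). Against hormone-sensing-like cells 5 of 10 were higher and 2 lower (median 0.37, beside 27.2% and 24.7% of all genes tested against that class). Cnn1 and Tagln each had 4.36 CPM in secretory-like gland cells and at most 1.38 and 1.35 in the unnamed tumor clusters. Cnn1, a smooth muscle calponin, had 1.77, 0, 0.778, 0.792 and 0.819 CPM against 39.7 and 20.9 in the gland (log2 fold change -5.34, SE 0.45, adjusted p 1.92e-06), and Tagln had 0, 2.28, 2.14, 1.58 and 0.409 against 46.8 and 55.7 (log2 fold change -5.00, SE 0.38, adjusted p 8.59e-07). Acta2, Myh11, Mylk and Tpm2 of the same apparatus also fell. Npy, a neuropeptide with 455 CPM in the basal-like gland class, had 0, 0, 0.195, 1.06 and 0 CPM in tumor libraries and 12.1 and 256 in the gland (log2 fold change -8.23, SE 1.11, adjusted p 5.94e-05). The 3 genes that rose were Cnn2, an actin-binding calponin of many cell types (1.69), the integrin subunit Itgb4 and Trp63, the basal lineage transcription factor. Trp63 stayed low, at 13.3, 9.58, 8.17, 13.7 and 11.5 CPM against 3.34 and 1.74 (log2 fold change 1.88, SE 0.45, adjusted p 0.00331), and within the tumor it was 22.1 CPM in cluster 8 and 19.8 in cluster 5 but 3.35 in cluster 9. In the gland it was 16.4 CPM in basal-like cells, and against that class alone its log2 fold change was -0.57 (adjusted p 0.549, edgeR). Without gland 1 replicate 2 the log2 fold change of Npy was -4.96. Those without replicate 1 were -9.33 for Npy, -4.67 for Cnn1 and 2.65 for Trp63.

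Luminal secretory genes changed in both directions. Of 24 tested, 13 fell and 6 rose, with a median of -0.80, and against the secretory-like gland class alone 16 of 23 were lower and 1 higher, with a median of -1.88. Against hormone-sensing-like cells 11 of 21 were higher and 6 lower (median 0.74), and against basal-like cells 7 and 6 of 22 (median 0.60). Besides milk genes, those that fell included Aldh1a3, Folr1, Xdh, Muc15 and Fcgbp. Csn2, beta-casein, had 1.77, 16.9, 14.0, 13.7 and 17.2 CPM in tumor libraries and 604 and 4593 in the gland (log2 fold change -7.56, SE 0.59, adjusted p 1.10e-06). Csn1s2a, another casein, had 0, 5.02, 5.25, 4.23 and 4.09 CPM against 277 and 3404 (log2 fold change -8.73, SE 0.73, adjusted p 1.79e-06). Lalba, the lactose synthase subunit alpha-lactalbumin, had 0.887, 2.74, 1.17, 1.32 and 0.819 CPM against 150.4 and 148 (log2 fold change -6.72, SE 0.25, adjusted p 6.48e-09). Both casein levels differed widely between the gland libraries, with gland 1 replicate 2 higher, but the tumor stayed below each. Csn1s1 fell by less, from 1010 and 2251 CPM to 131, 179.7, 134, 169.6 and 163 (log2 fold change -3.38, SE 0.24, adjusted p 5.45e-07). Glycam1 was decided by 1 library: it had 0 CPM in gland 1 replicate 1 and 1327 in replicate 2 (log2 fold change -8.29). Without replicate 2 the value was 5.53, which was fitted with no gland UMIs and is no bound. The casein values without replicate 2 were -5.42 for Csn2, -5.97 for Csn1s2a and -2.67 for Csn1s1, and without replicate 1 -8.34 for Csn2 and -9.58 for Csn1s2a. Without replicate 1 Glycam1 had -9.29.

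The list members that rose included a transcription factor and secreted products. Elf5, which directs secretory differentiation, had 71.9, 49.3, 61.1, 53.9 and 68.0 CPM against 37.6 and 33.1 (log2 fold change 0.74, SE 0.21, adjusted p 0.00899), but its level in secretory-like gland cells was 68.9, and against that class alone the log2 fold change was -0.48. Its call was also lost without members holding stromal UMIs (log2 fold change 0.18, adjusted p 0.593, edgeR). Kit, the receptor of luminal progenitors, had 43.5, 38.3, 37.5, 36.7 and 39.7 CPM against 66.8 and 33.1, with overlapping libraries (log2 fold change -0.48, SE 0.22, adjusted p 0.0783). Wfdc18, a secreted whey acidic protein family member, rose from 1832 and 2514 CPM to 6838, 8300, 5838, 9823 and 5477 (log2 fold change 1.74, SE 0.27, adjusted p 0.000146) and had 3853 CPM in secretory-like gland cells, against which it was not called (log2 fold change 0.53, adjusted p 0.0886, edgeR). Lbp, a binding protein for bacterial lipopolysaccharide, rose from 30.9 and 17.4 CPM to 145, 153, 166, 146 and 186 (log2 fold change 2.58, SE 0.23, adjusted p 2.76e-06), and Plin2 and Cd14 rose with it. The call of Muc1 (0.60) was lost without gland 1 replicate 2 (0.47). Lbp had 3.23 without replicate 1.

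Promoters of the lost casein genes are shown because Stat5, which acts downstream of the prolactin receptor, binds the letters TTCNNNGAA. These letters, which read alike on both strands, were searched in RefSeq promoter windows of GRCm38.p6, from 250 bases before to 50 after a start. They occurred in 4 of the 15 secretory genes with a window (Csn1s1, Csn1s2a, Csn2 and Glycam1) and in 9.55% of 27025 genes with one. Each match is in capitals and says nothing of binding in these cells. The windows lie at chr5:87699376-87699675 (minus strand), chr5:87774200-87774499 (plus) and chr5:87665958-87666257 (plus), written 5′ to 3′ along the gene.
Csn2: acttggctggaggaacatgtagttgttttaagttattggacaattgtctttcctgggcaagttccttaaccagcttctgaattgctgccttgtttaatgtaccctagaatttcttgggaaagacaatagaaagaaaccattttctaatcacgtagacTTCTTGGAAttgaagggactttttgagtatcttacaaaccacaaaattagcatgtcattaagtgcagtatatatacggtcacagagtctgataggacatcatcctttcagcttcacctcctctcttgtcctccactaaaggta
Csn1s2a: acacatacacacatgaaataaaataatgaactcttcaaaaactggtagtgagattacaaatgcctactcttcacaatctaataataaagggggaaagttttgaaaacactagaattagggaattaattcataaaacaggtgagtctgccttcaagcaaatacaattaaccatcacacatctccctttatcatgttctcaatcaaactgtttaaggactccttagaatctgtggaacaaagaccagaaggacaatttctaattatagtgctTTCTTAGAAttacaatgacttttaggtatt
Csn1s1: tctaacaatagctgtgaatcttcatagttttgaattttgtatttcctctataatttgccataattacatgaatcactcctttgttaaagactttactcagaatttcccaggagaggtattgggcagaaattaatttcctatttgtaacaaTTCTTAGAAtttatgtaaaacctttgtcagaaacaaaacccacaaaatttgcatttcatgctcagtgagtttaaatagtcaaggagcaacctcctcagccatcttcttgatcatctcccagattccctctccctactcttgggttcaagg

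Some of the genes with the largest falls were highest in the fibroblast-like members of the gland. Inmt, a methyltransferase, Cxcl13, a B cell chemokine, Has1, a hyaluronan synthase, Igfbp6 and Fgl2 were among the 12 largest declines. Has1 had 2.66, 1.82, 0.973, 0.528 and 0.409 CPM in the tumor and 28.0 and 291 in the gland (log2 fold change -7.05, SE 0.80, adjusted p 1.64e-05). In the gland it had 1231 CPM in the 24 fibroblast-like members and 10.5, 10.7 and 16.4 in the secretory-like, hormone-sensing-like and basal-like classes. Cxcl13 had 12.9 and 806 CPM in the gland and 2.66, 0, 0.778, 0 and 0.819 in the tumor (log2 fold change -9.18, SE 1.22, adjusted p 5.25e-05), with 2621 CPM in fibroblast-like members against 23.6, 22.7 and 16.4. Inmt had 10.9 and 118 CPM in the gland and 0 UMIs in the tumor, at least 139.8-fold lower (47.0-fold without gland 1 replicate 2 and 573-fold without replicate 1), and Igfbp6 had 33.0 and 78.3 against 0 to 0.792 (log2 fold change -6.82, SE 0.51, adjusted p 7.80e-07). All 5 were higher in gland 1 replicate 2 than in replicate 1, as were 7 of the 10 fibroblast markers, while Col1a1, Col1a2 and Col3a1 were lower there. Without the stromal-like clusters the log2 fold changes of Has1 and Fgl2 were -5.49 and -4.68 (from -7.05 and -6.42), that of Igfbp6, with 39.3 CPM in basal-like gland cells, was -8.07, and Cxcl13 and Inmt no longer had enough counts to be tested. With gland 1 replicate 2 left out the values were -4.68 for Has1, -4.27 for Cxcl13, -6.17 for Igfbp6 and -4.37 for Fgl2, and with replicate 1 left out -8.04 for Has1, -10.21 for Cxcl13 and -7.33 for Fgl2.

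**Figure D2:**
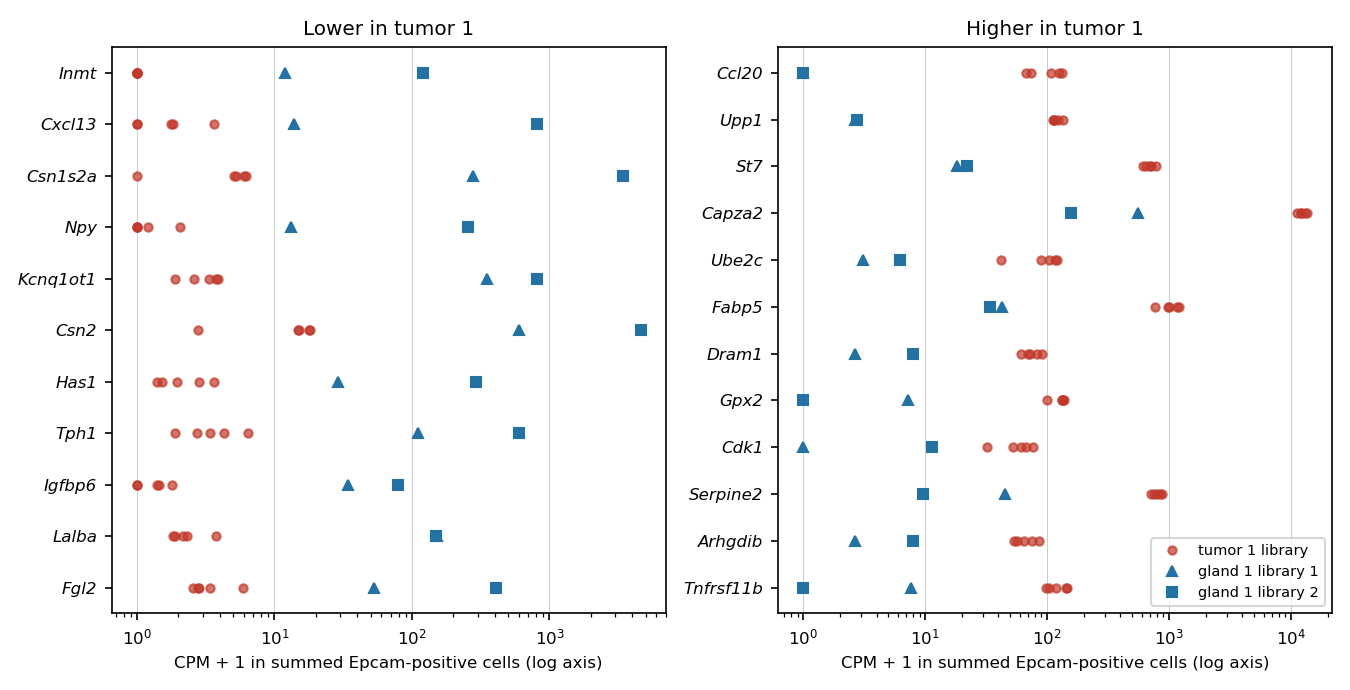
Level of 11 of the 12 genes with the largest called decrease (left) and of the 12 with the largest increase (right), as CPM + 1 on a log axis, in the summed Epcam-positive cells of each tumor 1 library (circles) and of gland 1 libraries 1 (triangles) and 2 (squares). Tumor and gland libraries do not overlap for any gene shown, and for most genes on the left gland 1 library 2 lies above library 1.

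Genes that were lower than in each of the 3 gland classes, by a rule set after the values were seen, were led by Kcnq1ot1 (chr7:143203458-143296549), a long noncoding RNA of an imprinted domain made from the paternal copy. It had 0.887, 2.74, 2.33, 1.58 and 2.87 CPM in the tumor and 349 and 813 in the gland (log2 fold change -8.01, SE 0.33, adjusted p 1.45e-08). Every gland class held it, with 475, 259 and 698 CPM in the secretory-like, hormone-sensing-like and basal-like cells. In the tumor the 22 cells of the secretory-like cluster had 153 CPM, whereas clusters 3, 5, 8, 9, 10 and 11 had between 0 and 1.81. The log2 fold change was -7.27 without gland 1 replicate 2.

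Next by this rule, with Csn1s2a, came the small nucleolar RNAs Snord42a and Snord49b, whose genes often lie within others so that their counts are uncertain. Their log2 fold changes were -5.54 and -5.62, and -1.73 and -1.11 against gland 2. Of the protein-coding genes, Fgfr2, a receptor of fibroblast growth factors in mammary epithelium, had 0.887, 1.37, 1.17, 1.06 and 2.05 CPM against 76.0 and 81.8 (log2 fold change -5.86, SE 0.25, adjusted p 1.45e-08), and log2 fold changes of -3.95, -6.61 and -5.89 against the secretory-like, hormone-sensing-like and basal-like classes in turn. Arhgef6, an exchange factor for Rac and Cdc42, had 0.887, 1.37, 2.14, 3.70 and 1.23 CPM against 80.2 and 59.2 (log2 fold change -5.04, SE 0.30, adjusted p 1.82e-07; -6.08, -4.30 and -4.23 by class). Flnc, filamin C, had 4.44, 2.28, 3.11, 2.91 and 3.28 CPM against 75.6 and 87.0 (log2 fold change -4.68, SE 0.22, adjusted p 3.22e-08; -4.19, -4.56 and -6.08 by class). For all 3 genes the tumor libraries stayed below both gland libraries. Nfia, a nuclear factor I transcription factor, had 5.32, 10.5, 7.78, 10.0 and 9.01 CPM against 143 and 109.7 (log2 fold change -3.87, SE 0.20, adjusted p 7.26e-08; -3.59, -3.99 and -4.13 by class). Samd5, Fhad1 and the MAP kinase phosphatase Dusp7 had log2 fold changes of -6.22, -4.18 and -3.84. The casein genes Csn2 and Csn1s2a met the rule at gland class levels of 80.7 to 216 CPM outside the secretory-like cells. In all, 823 of the 2507 lower genes that could be tested against each class were lower in all 3 comparisons, and 1311 of 3336 higher genes were higher. The 3 gland classes were clustered on the same counts, so these figures describe the members and are no separate evidence. Dusp7 had -3.24 without gland 1 replicate 2.

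Neighbouring genes on chromosome 6 were among the largest rises. Capza2 (chr6:17636234-17666972), a subunit of the actin capping protein, had 13530, 12970, 11190, 12120 and 12060 CPM in tumor libraries and 558 and 157 in the gland (log2 fold change 5.07, SE 0.44, adjusted p 2.48e-06). St7 (chr6:17692933-17943025) had 714, 612, 699, 650.1 and 781 CPM against 17.1 and 20.9 (log2 fold change 5.24, SE 0.23, adjusted p 1.45e-08). Met (chr6:17463800-17573980), the hepatocyte growth factor receptor, which was named after its value was seen, had 2805, 2594, 2785, 2560 and 2499 CPM against 198 and 83.6 (log2 fold change 4.16, SE 0.30, adjusted p 6.24e-07). Within 1 Mb of Met on either side, 8 of 24 listed genes could be tested, 7 were higher, Cav2 and Cav1 among them, and 1, Tes, was called lower (log2 fold change -1.08), with 169, 159.6, 198, 158 and 179 CPM in the tumor and 517 and 197 in the gland. The Tes libraries overlapped, and the call was lost without gland 1 replicate 1 (-0.15). Levels differed by cluster: Capza2 was 1939 CPM in the 22 secretory-like tumor cells and 3966 in the 70 hormone-sensing-like ones, against 11580 to 15200 in clusters 3, 5, 8, 9, 10 and 11. In the 210 fibroblast-like and 42 endothelial and mural-like tumor members it was 9809 and 8020, and in the 24 fibroblast-like gland members 184. Log2 fold changes without gland 1 replicate 1 were 6.34 for Capza2 and 5.02 for Met.

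Other genes among the largest rises came from several pathways. Ccl20, a chemokine that attracts dendritic and Th17 cells, had 0 UMIs in the gland and 131, 66.1, 73.3, 106 and 123 CPM in the tumor, at least 102-fold higher (18.1-fold without gland 1 replicate 1). Upp1, uridine phosphorylase, had 112, 114, 122, 112 and 134 CPM against 1.67 and 1.74 (log2 fold change 6.10, SE 0.30, adjusted p 5.55e-08). Fabp5, a fatty acid carrier, had 1155, 769, 1007, 1210 and 981 CPM against 41.4 and 33.1 (log2 fold change 4.73, SE 0.26, adjusted p 9.00e-08), and Serpine2, a secreted protease inhibitor, 849, 748, 715, 876 and 791 against 44.3 and 8.71 (log2 fold change 4.61, SE 0.36, adjusted p 1.02e-06). All tumor libraries lay above both gland libraries for these genes. Gpx2, a glutathione peroxidase of epithelia, had 133, 99.4, 132, 136 and 132 CPM against 6.27 and 0 (log2 fold change 4.69, SE 0.38, adjusted p 1.39e-06). Dram1, a lysosomal p53 target, Arhgdib and Tnfrsf11b, the decoy receptor of RANK ligand, had log2 fold changes of 4.70, 4.54 and 4.54. Scrg1 and Gcnt1, named by the same later rule, had 4.10 and 4.29. Without gland 1 replicate 1 the values were 6.54 for Serpine2, 3.44 for Dram1 and 3.28 for Arhgdib, and without replicate 2 5.46 for Dram1 and 5.30 for Arhgdib.

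The tumor cells gained a broad proliferation program. DNA replication genes rose in 28 of 30 tested cases and mitotic genes in 28 of 29, with none lower in either list and median log2 fold changes of 2.46 and 3.64 (2.38 and 3.38 with genes at 0 UMIs in the gland set at their 3-count bound). Ube2c, which supplies ubiquitin to the anaphase-promoting complex, had 119.8, 40.6, 87.7, 102 and 114 CPM against 2.09 and 5.22 (log2 fold change 5.04, SE 0.60, adjusted p 2.31e-05). Cdk1, the kinase that starts mitosis, had 65.7, 31.0, 51.5, 60.8 and 76.2 CPM against 0 and 10.4 (log2 fold change 4.66, SE 0.77, adjusted p 0.000269), and Tk1, thymidine kinase, 47.0, 33.8, 41.6, 44.6 and 54.5 against 1.67 and 1.74 (log2 fold change 4.67, SE 0.40, adjusted p 2.05e-06). Mki67, a marker of cycling cells, had 104, 88.9, 106, 103 and 132 CPM against 20.9 and 31.3 (log2 fold change 2.14, SE 0.24, adjusted p 1.45e-05). The tumor libraries lay above both gland libraries for these 4 genes. Ccna2, Kif20a and Cdc45 had 0 UMIs in the gland and were at least 24.6-, 14.9- and 14.0-fold higher (4.34-, 2.63- and 2.48-fold without gland 1 replicate 1). Pcna, Slbp and Mad2l1 were not called. Leaving out gland 1 replicate 1 gave 4.16 for Ube2c and 2.47 for Cdk1.

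The share of cycling cells, those with 2 or more UMIs over both lists after thinning to 1000 UMIs, was 51.1%, 33.2%, 38.8%, 42.3% and 47.3% in tumor libraries and 10.4% and 6.67% in the gland. The difference of 34.0 points had p = 0.0476 in the two-sided exact permutation test, the smallest value the design allows, and 0.0952 after adjustment. Without thinning, tumor libraries had 64.1% to 69.9% and the gland 45.8% and 64.0%, a smaller gap. Clusters 8 and 10 were almost entirely cycling (99.0% each), while the other unnamed clusters ranged from 20.98% to 33.3%. Of the stromal-marker cells, 51.8% counted as cycling in the tumor and 8.45% in the gland. Whether those of the tumor were stromal cells or tumor cells with mesenchymal genes was not tested.

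**Figure D3:**
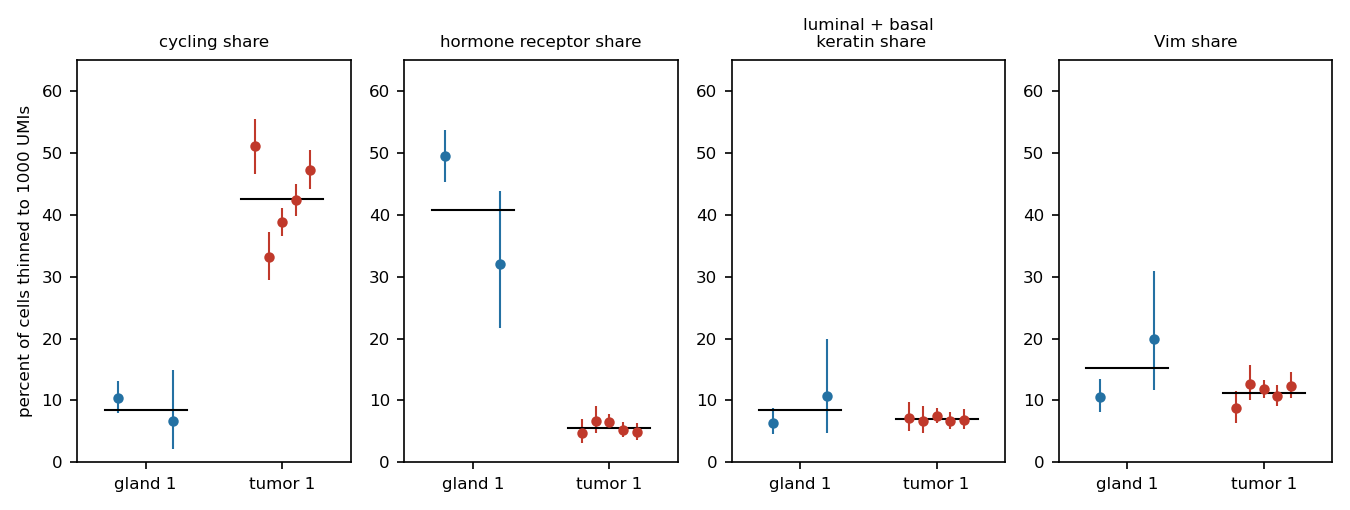
Percent of Epcam-positive cells in each library, each thinned to 1000 UMIs, that were cycling (2 or more UMIs over 2 lists), held a UMI of a hormone receptor gene, held both luminal and basal keratin UMIs, or held a Vim UMI. Points are libraries with exact 95% binomial intervals, and black lines are group means. Cycling and hormone receptor shares separate tumor from gland, and the other 2 shares overlap.

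Replication promoters are shown because E2F factors, regulators of S phase genes, bind the letters TTTGGCGC or TTTCGCGC. Searched on both strands in the same windows, the letters occurred in 9 of 25 replication genes with a window (Mcm3, Mcm5, Mcm6, Mcm7, Cdt1, Lig1, Rfc3, Pola1 and Uhrf1) and in 0.929% of all genes with one. Mcm5 and Mcm6, subunits of the replicative helicase, held 2 and 3 matches, of which neighbours overlap and merge in the capitals. Mcm5 had 25.7, 16.0, 21.8, 20.9 and 24.2 CPM against 2.09 and 0 in the gland (log2 fold change 3.66, SE 0.47, adjusted p 3.91e-05) and Mcm6 95.8, 67.0, 90.8, 92.5 and 100.3 against 40.5 and 22.6 (log2 fold change 1.37, SE 0.24, adjusted p 0.000402; 2.01 without gland 1 replicate 1). The windows are chr8:75109259-75109558 (plus strand) and chr1:128359656-128359955 (minus).
Mcm5: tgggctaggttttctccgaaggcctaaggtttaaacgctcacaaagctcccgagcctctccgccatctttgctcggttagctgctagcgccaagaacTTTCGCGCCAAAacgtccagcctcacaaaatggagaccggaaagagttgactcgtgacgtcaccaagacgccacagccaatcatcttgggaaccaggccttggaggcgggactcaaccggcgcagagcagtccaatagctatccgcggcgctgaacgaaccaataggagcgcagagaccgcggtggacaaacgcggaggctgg
Mcm6: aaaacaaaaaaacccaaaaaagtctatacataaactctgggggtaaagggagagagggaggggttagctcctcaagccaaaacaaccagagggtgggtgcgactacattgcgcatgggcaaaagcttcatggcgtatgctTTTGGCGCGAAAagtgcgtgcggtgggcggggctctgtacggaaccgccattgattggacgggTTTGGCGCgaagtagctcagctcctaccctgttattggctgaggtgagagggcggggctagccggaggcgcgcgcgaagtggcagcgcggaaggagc

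Of 17 tested homologous recombination genes, 12 rose and 2 fell, with a median of 1.29. Without cycling members 6 could be tested, of which 1 was lower and none higher (median 0.20), beside 23.2% and 22.2% of all genes tested without them. For this and later such settings, cycling members were those with 2 or more UMIs over the replication and mitosis lists before thinning. That removed 64.1% to 69.9% of tumor members and 45.8% and 64.0% of gland members, a cut that also depends on depth. Whether lost calls reflect cycling or fewer counts was not tested. Rad51ap1 had 0 UMIs in the gland and 16.0, 11.4, 15.2, 17.96 and 14.3 CPM in the tumor, at least 16.7-fold higher (2.96-fold without gland 1 replicate 1). Brca2, Bard1, Brip1, Exo1 and Chek1 also rose. Atr, the kinase that senses stalled forks, fell from 18.4 and 26.1 CPM to 7.10, 8.67, 7.20, 5.02 and 7.37 (log2 fold change -1.59, SE 0.30, adjusted p 0.000692), and Rad50 from 148 and 124 to 90.5, 86.7, 89.9, 103 and 88.5 (log2 fold change -0.58, SE 0.15, adjusted p 0.00534). Trp53, the p53 tumor suppressor, rose from 51.8 and 38.3 CPM to 109, 110.4, 106, 107 and 102 (log2 fold change 1.19, SE 0.17, adjusted p 0.000107). Without cycling members Trp53 was not called (log2 fold change 0.55, adjusted p 0.0798, edgeR). Transcript counts do not show whether either allele was mutated. Of 21 tested p53 pathway genes, 9 fell and 5, Trp53 among them, rose (median -0.49), against 5 and 3 of 16 without cycling members (median 0.37) and 4 and 5 without gland 1 replicate 1 (median 0.19). Against basal-like gland cells 3 of 20 fell and 4 rose (median 0.15), and against secretory-like cells 5 and 6 (median -0.02). Against hormone-sensing-like cells 9 of 21 fell and 4 rose (median -0.26). Ccng1 and Sesn2 had log2 fold changes of -1.99 and -2.06, and Cdkn1a also fell. Mdm2, Bax and Bbc3 had values of -0.66, -0.95 and -1.07, calls lost without gland 1 replicate 2 (-0.38, -0.81 and -0.85). Those that rose included Pmaip1 (2.81) and Cdkn2a, which encodes p16 and p19ARF and had 141, 208, 138, 151 and 115 CPM against 24.6 and 12.2 (log2 fold change 2.85, SE 0.30, adjusted p 1.08e-05). Leaving out gland 1 replicate 1 ended the calls of Rad50 (-0.39), Chek1 (1.22) and Brip1, as well as those of Bax (-1.18) and Bbc3 (-1.40), and gave -2.75 for Sesn2, 3.66 for Cdkn2a and 4.95 for Pmaip1. Sesn2 had -1.33 without replicate 2.

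Interferon-stimulated genes were higher as a group, with 23 of 29 tested genes up, none down and a median of 1.85. Ifit3 had 74.5, 41.5, 61.1, 56.5 and 56.1 CPM against 2.92 and 1.74 (log2 fold change 4.40, SE 0.38, adjusted p 2.46e-06). Mx1, an antiviral GTPase, had 0 UMIs in the gland and 29.3, 24.2, 41.4, 23.8 and 33.6 CPM in the tumor, at least 35.2-fold higher (6.21-fold without gland 1 replicate 1). Within the tumor Mx1 was uneven, at 279.6 CPM in cluster 11, which it helped to define, and 10.4 to 27.6 in the other unnamed clusters. Isg15, Irf7, Usp18 and Rsad2 rose too, and the call of Irf1 (0.44) was lost without gland 1 replicate 2 (adjusted p 0.0575, edgeR). Irf1 was also not called without replicate 1 (0.54), where Ifit3 had 5.04.

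Antigen presentation changed in parts. For MHC class I, 9 of 17 genes rose and 4 fell (median 0.46). B2m, the light chain, had 9380, 8958, 7515, 8033 and 9033 CPM against 2378 and 1403 (log2 fold change 2.18, SE 0.24, adjusted p 1.28e-05), and the immunoproteasome subunit Psmb9 149.9, 108, 132, 134 and 148 against 30.5 and 8.71 (log2 fold change 2.49, SE 0.30, adjusted p 2.40e-05). The peptide transporter subunits parted: Tap1 rose (1.69) and Tap2 fell (-1.43, with 34.6, 31.9, 33.3, 29.9 and 29.5 CPM against 96.5 and 69.6). For MHC class II, 4 of 7 rose and none fell, and without gland 1 replicate 1 none was called. H2-Ab1 had 47.9, 46.1, 47.3, 46.2 and 45.9 CPM against 3.34 and 31.3 (log2 fold change 2.12, SE 0.52, adjusted p 0.00408), with 93.8 in cluster 9 and 142 in cluster 10 against 4.75 in cluster 5. The H2-Ab1 call was lost with cells of 1 or more Epcam UMI (log2 fold change 0.48, adjusted p 0.571, edgeR), without gland 1 replicate 1 (0.61, adjusted p 0.107) and without cycling members, where 1 of 5 class II genes was higher (median -0.06). Among immune markers, Srgn had 67.7 to 92.1 unscaled CPM in the tumor and 10.1 and 34.7 in the gland. Ptprc, Tyrobp and Fcer1g were at 0 in the gland and at most 1.07 in the tumor, and Cd52, Laptm5, Cd79a and Coro1a were highest in gland 1 replicate 2. Their part in the class II levels was not tested. Without gland 1 replicate 1 Psmb9 had 3.97, and without replicate 2 H2-Ab1 had 3.81.

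Of 17 chemokines tested, 9 rose and 5 fell (median 1.03), beside 29.5% and 28.0% of all genes tested. Against secretory-like gland cells 10 of 16 were higher and 2 lower (median 2.40). Against hormone-sensing-like cells 11 of 17 were higher and 3 lower (median 2.70), and against basal-like cells 9 and 3 of 16 (median 1.44). Besides Ccl20, the T cell chemokine Ccl5 had 0 UMIs in the gland and 59.5, 56.6, 22.6, 60.8 and 24.6 CPM in the tumor, at least 44.6-fold higher (7.88-fold without gland 1 replicate 1), and the neutrophil attractants Cxcl1, Cxcl3 and Cxcl5 rose. Cxcl14 and Cxcl15, which in the gland were concentrated in basal-like (1579 CPM) and hormone-sensing-like cells (460.4 CPM), had log2 fold changes of -4.13 and -4.53. In the hormone-sensing-like tumor cells Cxcl15 had 606.6 CPM. Of 18 NF-kB targets and cytokines, 7 rose and 7 fell (median -0.08). Higher and lower counts were 10 and 6 against hormone-sensing-like gland cells (median 0.84), 7 and 6 of 17 against basal-like cells (median 0.91) and 7 and 8 against secretory-like cells (median -0.52). Il1rn, the interleukin 1 receptor antagonist, rose from 2.51 and 0 CPM to 47.0, 29.6, 40.3, 35.7 and 35.6 (log2 fold change 4.20, SE 0.43, adjusted p 8.15e-06), and Tnf from 7.94 and 1.74 to 32.8, 31.5, 23.7, 25.9 and 28.3 (log2 fold change 2.10, SE 0.34, adjusted p 0.00023). Csf3, a growth factor of granulocytes, fell from 152 and 279 to 45.2, 74.8, 37.1, 56.8 and 37.7 (log2 fold change -2.06, SE 0.28, adjusted p 5.75e-05). Il6 had a log2 fold change of -5.16, and in the gland 716 CPM in fibroblast-like members against 12.2 in secretory-like ones. Secreted defence proteins were lower in 7 of 12 cases and higher in none (median -0.90), but without gland 1 replicate 2 5 were lower and 3 higher (median -0.16, beside 27.8% and 29.2% of all genes tested). Against secretory-like gland cells 7 of 11 were lower and 2 higher (median -1.20), whereas against hormone-sensing-like cells 7 of 11 were higher and 4 lower (median 1.06) and against basal-like cells 3 of 9 were higher and 2 lower (median 0.15). Pigr, which carries antibodies into milk, fell from 59.8 and 202 CPM to 0.887, 2.28, 3.31, 0.792 and 1.64 (log2 fold change -5.88, SE 0.48, adjusted p 1.46e-06), Reg3g by 3.66 on the log2 scale, and Ltf, Lcn2 and Chil1 also fell. The calls of Saa1 (-2.03) and of the complement component C3 (-1.42) were lost without gland 1 replicate 2, where the values were -0.0017 and -0.23. The Lcn2 call (-0.57) was lost without replicate 1 (-0.31). Further values were -3.19 for Cxcl15, -2.97 for Saa1, -2.13 for C3, 3.99 for Tnf, -6.14 for Il6, -6.58 for Pigr and -2.70 for Reg3g without replicate 1 and -3.37 for Il6 and -4.83 for Pigr without replicate 2.

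Of the metabolic lists, protein degradation and respiration rose in most members. Constitutive proteasome subunits were higher in 24 of 31 cases and lower in 1 (median 1.14). Psma2 had 744, 584, 639, 701 and 749 CPM against 181 and 146 (log2 fold change 2.04, SE 0.18, adjusted p 2.72e-06), and Psmb3 had a log2 fold change of 2.00. The single decrease, Psmb7 (-0.74), turned to 0.68 against gland 2. Subunits of the respiratory chain encoded in the nucleus were higher in 22 of 33 cases and lower in 2 (median 0.93). Cox5a had 611, 521, 475, 628 and 513 CPM against 145 and 132 (log2 fold change 1.97, SE 0.18, adjusted p 3.37e-06), Ndufb8 a log2 fold change of 1.98, and Ndufa1 and Ndufa5 -0.84 and -0.89. The share of UMIs from mitochondrial genes, in contrast, had medians of 5.04% to 9.02% in tumor libraries and 11.6% and 8.62% in the gland.

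Glycolysis and hypoxia genes rose in 17 of 24 cases and fell in 4 (median 0.98), and in 10 and 4 of 23 without cycling members. Eno1, enolase, had 435, 273, 453, 529 and 330.1 CPM against 59.3 and 57.5 (log2 fold change 2.79, SE 0.28, adjusted p 6.79e-06), and Gapdh, Pgk1, Pkm and Ldha rose with it. Hk2, a hexokinase, had 50.6, 57.9, 44.5, 44.4 and 29.1 CPM against 164 and 247 (log2 fold change -2.16, SE 0.23, adjusted p 9.39e-06), with 1016 CPM in the fibroblast-like gland members and 48.9, 174 and 118 in the secretory-like, hormone-sensing-like and basal-like classes. Its log2 fold change was -1.70 without stromal-like clusters and -0.03 against gland 2. Hk1 was not called, and the glucose carrier Slc2a1 fell. Vegfa, the vascular growth factor, fell from 229 and 383 CPM to 84.3, 129.5, 112, 92.2 and 97.5 (log2 fold change -1.54, SE 0.21, adjusted p 5.53e-05). Cholesterol synthesis genes were higher in 14 of 20 cases and lower in 1 (median 0.90), and in 7 and 0 of 14 without cycling members. Mvd, which makes isopentenyl diphosphate in the mevalonate pathway, had 9.76, 12.3, 11.9, 10.6 and 15.6 CPM against 2.51 and 1.74 (log2 fold change 2.35, SE 0.43, adjusted p 0.000551). The Gapdh call (0.90) was lost without gland 1 replicate 1 (0.52).

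Of 23 fatty acid and lipid droplet genes, 8 were higher and 7 lower, near the shares of all genes tested. Scd1, which desaturates fatty acids, had 813, 934, 800.3, 806 and 751 CPM against 121 and 139 (log2 fold change 2.67, SE 0.18, adjusted p 3.53e-07), and rose together with Elovl5, Elovl6 and Fads1. Fabp5, Dgat1 and Acsl4 rose as well. Lpl, lipoprotein lipase, fell from 27.2 and 81.8 CPM to 1.77, 1.82, 1.75, 1.06 and 1.64 (log2 fold change -4.92, SE 0.44, adjusted p 2.80e-06), and Dgat2, from 68.9 and 52.2 to 0.887, 5.02, 3.31, 3.43 and 2.46 (log2 fold change -4.25, SE 0.28, adjusted p 3.53e-07). Fasn and Acaca, the enzymes of new fatty acid synthesis, had log2 fold changes of -1.19 and -0.78, calls lost without gland 1 replicate 2 (-0.15 and -0.43). Of 20 antioxidant genes, 9 were higher and 8 lower. Nqo1 rose from 13.8 and 0 CPM to 57.7, 65.7, 45.3, 62.6 and 45.0 (log2 fold change 2.42, SE 0.43, adjusted p 0.000412). Hmox1, heme oxygenase, fell from 101 and 127 CPM to 6.21, 23.3, 8.17, 7.40 and 12.7 (log2 fold change -3.29, SE 0.34, adjusted p 8.71e-06) and Gclc, the first enzyme of glutathione synthesis, from 57.7 and 90.5 to 7.10, 14.6, 17.5, 12.2 and 15.6 (log2 fold change -2.33, SE 0.26, adjusted p 1.59e-05). The calls of Dgat1 (1.35) and Acsl4 (0.53) were lost without gland 1 replicate 1 (0.62 and 0.25). Lpl had -5.62 without that library and -4.05 without replicate 2, and Fasn -2.04 without replicate 1.

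Mesenchymal genes moved in both directions, with 7 of 20 higher, 9 lower and a median of -0.30. Against gland 2 the counts were 11 and 4 (32.1% and 34.4% of all genes tested against it were higher and lower), against secretory-like gland members 11 and 0 of 17 (median 1.84), against hormone-sensing-like members 12 and 4 (median 1.74) and against basal-like members 4 and 4 (median 0.05). Vim, vimentin, had 252, 314, 446, 255 and 400.5 CPM against 218 and 367, with overlapping libraries (log2 fold change 0.22, SE 0.26, adjusted p 0.489). Its pooled level was 4716 CPM in the 210 fibroblast-like tumor members and 62.9 to 198 in the unnamed clusters, and without the stromal-like clusters its log2 fold change was -0.58 (adjusted p 0.0462, edgeR). The share of members with a Vim UMI after thinning was 8.71% to 12.7% in the tumor and 10.6% and 20.0% in the gland (difference -4.04 points, p = 0.238, two-sided exact permutation test). Unthinned shares were 13.3% to 27.4% and 24.8% and 53.3%, and the stromal-marker cells gave 97.8% and 87.3%. Lgals1, galectin 1, rose from 90.7 and 95.8 CPM to 789, 759, 779, 833 and 735 (log2 fold change 3.07, SE 0.17, adjusted p 9.00e-08). Cav1 rose from 33.0 and 40.0 to 348, 281, 517, 254 and 611 (log2 fold change 3.51, SE 0.40, adjusted p 1.84e-05), but 5603 CPM lay in fibroblast-like members and 55.0 to 466 in the unnamed clusters, and without stromal-like clusters the value was 2.02. Zeb2 and Mmp3 had log2 fold changes of -3.31 and -5.43, with 331 and 1653 CPM in the fibroblast-like gland members. Zeb2 and Mmp3 had -2.70 and -4.84 without gland 1 replicate 2.

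Of 23 basement membrane and integrin genes, 6 rose and 11 fell, against 5 and 7 without gland 1 replicate 2 and 6 and 3 against secretory-like gland members. The collagen IV chains Col4a1 and Col4a2 rose, the former from 43.0 and 67.9 CPM to 162, 166, 169, 162 and 152 (log2 fold change 1.64, SE 0.20, adjusted p 2.42e-05). Itgav, the integrin alpha-v subunit, fell from 171 and 294 CPM to 58.6, 59.3, 55.8, 47.0 and 59.4 (log2 fold change -2.03, SE 0.19, adjusted p 5.02e-06), and Itga2, Itga6 and Itgb6 fell too. Itga3 and Itgb5 had values of -0.90 and -0.73, calls lost without gland 1 replicate 2 (-0.69 and -0.37). Nid1, nidogen, had a log2 fold change of -2.66, with 337 CPM in fibroblast-like gland members and 2.62, 6.00 and 9.83 in the 3 epithelial classes, and of 0.49 against secretory-like members. Among ERBB receptors and ligands 1 of 9 was called higher, Hbegf (0.48), a call lost with RLE size factors (adjusted p 0.0581, edgeR), with DESeq2 (adjusted p 0.0531) and without gland 1 replicate 2 (0.25), and 4 fell, including Egfr and the ligands Btc, Nrg1 (-2.14) and Epgn (-4.49). Of 10 Notch genes, 3 fell, Notch3 (-2.04), Jag1 (-1.08) and Hes1, a share near that of all genes tested, and none rose. Without gland 1 replicate 2, 6 fell and Jag1 was not called (-0.47), and without replicate 1, 1 fell. Jag1 had 199.8 CPM in basal-like and 10.5 in secretory-like gland cells, and against the latter alone its log2 fold change was 1.04. Wnt pathway genes were higher in 4 of 19 cases and lower in 7 (median -0.51). They were higher in 7 and lower in 4 of 17 against hormone-sensing-like gland members (median 0.50), 5 and 3 of 17 against secretory-like members (median -0.38), and 7 and 5 of 19 against gland 2 (median -0.06). Against basal-like members 2 of 19 were higher and 4 lower (median -0.61). Sfrp1, a secreted Wnt antagonist, rose from 28.4 and 36.6 CPM to 238, 325, 306, 292 and 258 (log2 fold change 3.19, SE 0.22, adjusted p 4.68e-07), with 552 and 512 CPM in clusters 3 and 5 against 61.8 in cluster 9, and Wnt10a rose to 16.0, 8.21, 12.2, 10.6 and 8.60 CPM from 2.51 and 0. Further calls were lost without gland 1 replicate 1, for Itga2 (-1.15), Itga3 (-1.12), Itga6 (-0.23), Nrg1 (-1.64), Notch3 (-1.73) and Hes1 (-0.11), where Epgn had -2.80 and Nid1 -3.38. Nid1 had -1.87 without replicate 2.

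Immediate early genes, which also respond to tissue dissociation, fell in 10 of 24 cases and rose in 3, whereas without gland 1 replicate 1 the counts were 5 and 6, and against gland 2 they were 7 and 12. Fosb fell from 2363 and 1259 CPM to 251, 353, 348, 276 and 301 (log2 fold change -2.57, SE 0.21, adjusted p 1.46e-06), and Jun, Junb and Egr1 also fell, while Ier2 and Btg2 rose (0.96 and 0.71), the latter not called without tumor 1 replicate 1, 2, 4 or 5 or without gland 1 replicate 2 (0.29). Hspa1b, a heat shock protein, had 38.1, 51.5, 51.5, 47.0 and 52.4 CPM against 236 and 64.4 (-1.72), but 0.60 against gland 2. How far handling of the samples set these levels was not tested. Jun turned to 0.31 without gland 1 replicate 1 and was -1.63 without replicate 2, and the Hspa1b call was lost without replicate 1 (-0.36), where Btg2 had 1.62.

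**Figure D4:**
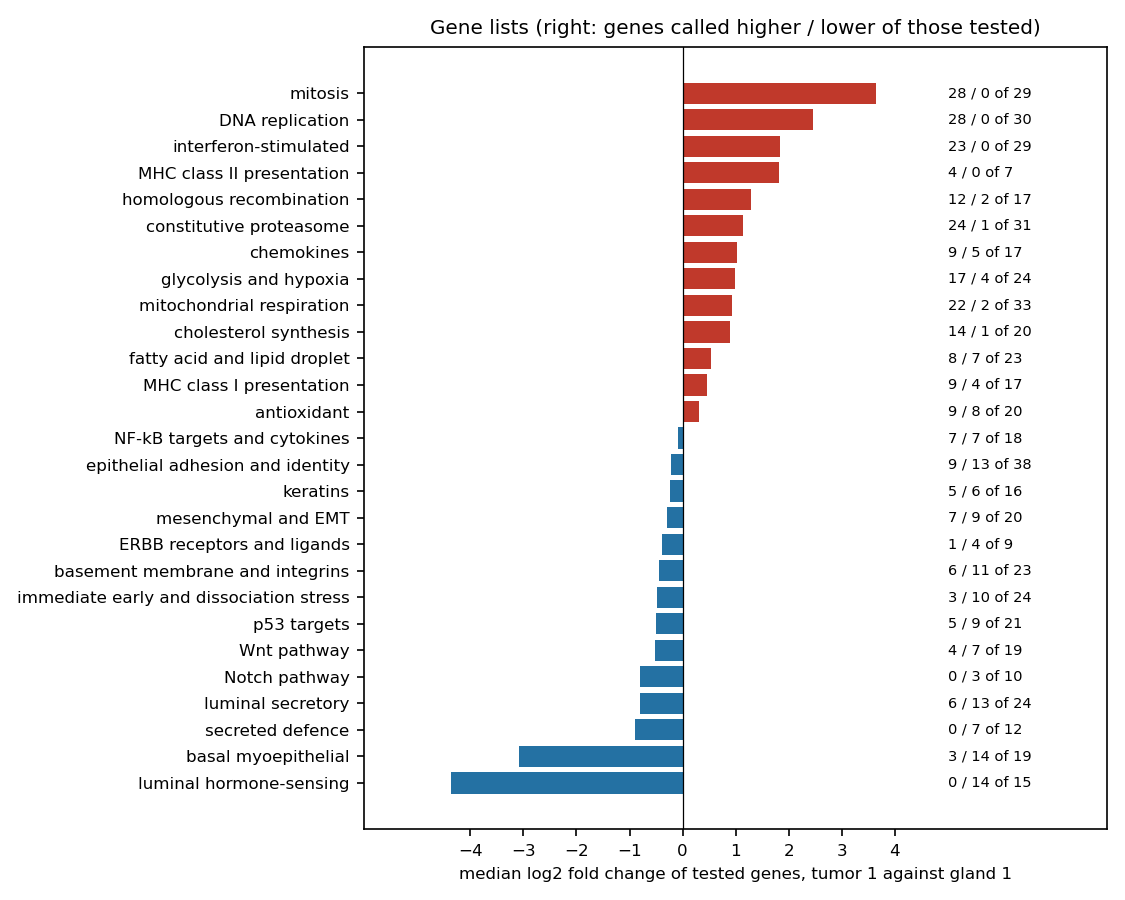
Median log2 fold change over the tested genes of 27 lists, tumor 1 against gland 1 (red above 0, blue below), with the numbers called higher and lower of those tested at the right. Mitosis (3.64) and DNA replication (2.46) stand at the top, and hormone-sensing (-4.37) and basal (-3.09) genes at the bottom, while adhesion, keratin and mesenchymal lists lie near 0.

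By chromosome, median log2 fold changes ran from -0.43 for 403 tested genes of chromosome 12 and -0.42 for 771 of chromosome 7 to 0.53 for 401 of chromosome 19 and 0.56 for 455 of chromosome 15. On chromosome 15, 45.1% of genes were higher and 18.7% lower, whereas on chromosome 7, where Kcnq1ot1 lies, 14.7% were higher and 37.7% lower. Chromosome 6 had a median of -0.26, against which Capza2, Met and St7 stood out. Without gland 1 replicate 2 the medians of chromosomes 12, 7, 19 and 15 were -0.43, -0.32, 0.58 and 0.57. The medians against gland 2, which shares the tumor libraries, were -0.47, -0.41, 0.48 and 0.54 for chromosomes 12, 7, 19 and 15.

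**Figure D5:**
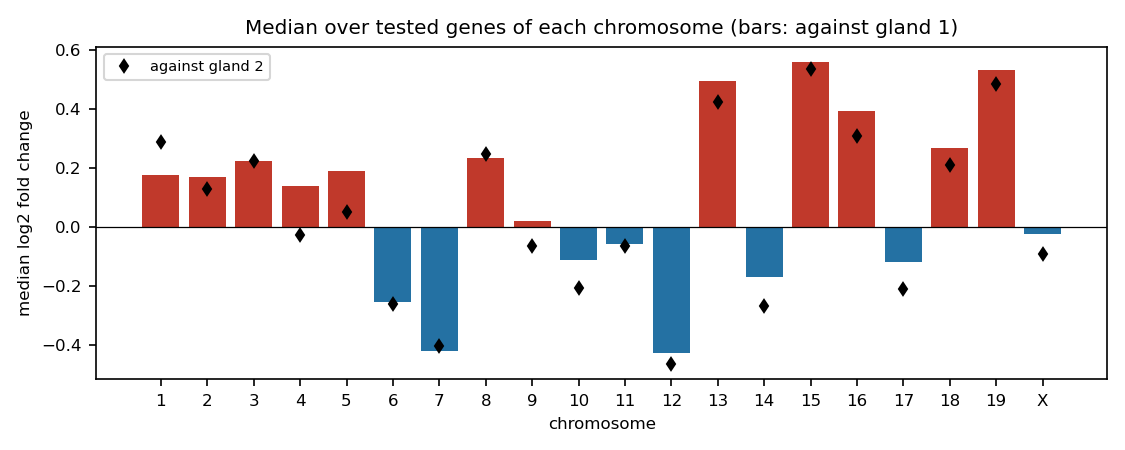
Median log2 fold change over the tested genes of each chromosome, tumor 1 against gland 1 (bars, red above 0 and blue below) and against gland 2 (diamonds). Chromosomes 13, 15, 16 and 19 lie above 0.3, and chromosomes 7 and 12 below -0.4, in the bars and in the diamonds.

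The gland of the second mouse was set against the same tumor libraries, so that both comparisons share them. Against its 2008 Epcam-positive cells the log2 fold changes were -5.15 for Pgr, -4.39 for Prlr, -7.65 for Csn2, -6.65 for Kcnq1ot1, -6.07 for Fgfr2, 5.77 for St7, 4.83 for Upp1, 4.31 for Fabp5 and 4.58 for Sfrp1. Those for Has1, Mmp3 and Zeb2, with high gland 1 levels in fibroblast-like members, were -2.34, -1.70 and -0.75. Brca1, with 0 UMIs in gland 1, had 1.97 and 2.44 CPM in gland 2.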

How the data were processed

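The authors deposited 1 table of UMI counts, 21743 genes by 21157 cells, made with Drop-seq tools and STAR on GRCm38.p6, as the study's methods and the submitters' processing notes give. Strand and paralog handling are not given in the sources used here. The study removed cells with few genes and the extremes of gene number and mitochondrial share. The deposited cells have at least 800 genes and 1111 UMIs. No doublet caller was run.

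Counts of members were summed per library and tested with edgeR 4.0.16 (quasi-likelihood, TMM, filterByExpr, adjusted p under 0.05, R 4.3.3), with DESeq2 1.42.0 as an alternative. On simulated counts for this comparison (10971 genes), 70% of 100 2-fold and 98% of 100 4-fold changes were recovered. The changes were set only in genes with many UMIs, so these rates do not cover genes with few. Far fewer genes were changed than were called in the data. Members were clustered with scanpy 1.11.5 (2000 variable genes, 20 components, 15 neighbours, resolution 0.5). Shares used cells thinned to 1000 UMIs, and all members were deep enough. Binomial intervals cover counting error only.

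Named genes were the 12 largest called changes in each direction at 50 CPM or more with no overlap and 1 direction without each library, up to 2 per list and direction at 10 CPM or more, and a fixed set of markers. Mitochondrial, ribosomal protein and predicted genes were left out of the first. Some genes that met the rule are not reported here. Other list genes are named to say which were called. The members and lists were chosen with earlier results of these data known. Library names are numbered in accession order. Gene positions are from the annotation of GRCm38.p6, which matched 11354 of 11460 tested genes. Tumor 2, with 33 Epcam-positive cells, was not used.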

Additional observations from a re-analysis of the deposited data

Results flagged for a closer look

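Of 122 gene levels and cell shares checked over the 5 tumor 1 libraries, 14, all gene levels, had 1 library far from the other 4, and chance alone does so for about 1 group in 20. Replicate 2 was that library for 6 genes, replicate 4 for 4, replicate 1 for 3 and replicate 5 for 1. Replicate 2 was highest for Cldn4 (320.6 CPM, nearest other library 193.7), Krt15 (65.68 against 25.4), Cxcl15 (17.33 against 7.37) and Lalba (2.737 against 1.32), and lowest for Gpx2 (99.43 against 131.5) and Epcam (2176 against 2404). Replicate 1 was lowest for Cldn3 (512.8 against 651.6), Csn2 (1.775 against 13.7) and Csn1s2a (0 against 4.09). Replicate 4 was highest for Rad50 (102.8 against 90.5) and Npy (1.057 against 0.195), and lowest for Itgav (47.02 against 55.8) and Lpl (1.057 against 1.64). Replicate 5 was highest for Fgl2 (4.915 against 2.38). The values of Npy, Lalba, Lpl and Fgl2 rest on few UMIs per library. Each of these genes but Epcam, which was not tested, kept its direction when any tumor 1 library was left out.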

How the results depend on the processing

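Of 113 called named genes reported here, 94 kept 1 direction in each of the 25 settings that gave them a value and 19 turned in 1 or more. A value in every setting was had for 80 of the 117 named genes with a test, and the fewest settings for a gene were 12. The call was lost, in the same direction, in 1 or more settings for 42 genes, among them Hbegf and Btg2 in most settings that leave out a tumor 1 library. Counts of higher and lower genes were 1686 and 1764 without cycling members, defined before thinning, and 1897 and 2084 with sums thinned to the smallest total. Lower genes were 1527 against basal-like gland members only, a choice made after seeing the data, as were the hormone-sensing-like and stromal-cluster settings. Leaving out single libraries in turn gave 2747 to 3509 higher and 2746 to 3342 lower genes, cycling differences of 31.87 to 36.34 points and hormone receptor differences of -43.85 to -26.37, where fewer libraries raise the smallest p that can be reached. The keratin share difference was -12.8 without thinning (p = 0.0476, exact permutation test), 0.200 at 500 UMIs and 0.568 and -3.67 without gland 1 replicates 2 and 1, and the Vim share difference was 0.663 and -8.75 without the same libraries. Log2 fold changes turned as follows, and the cause was not tested. With gland 2 in place, Hspa1b was 0.60 and Psmb7 0.68. Against secretory-like gland members only, values were Elf5 -0.48, Hbegf -0.24, Jag1 1.04, Krt14 2.55, Krt18 -0.62, Nid1 0.49 and Tapbpl 0.068. Without hormone-sensing-like and basal-like clusters they were Elf5 -0.24, Jag1 0.58, Krt14 0.86, Krt18 -0.30, Tapbpl 0.062 and Vim -0.40. Against hormone-sensing-like members, Kit was 0.74 and Krt14 2.44. Against basal-like members they were Atr 1.08, Cxcl15 1.28, Epgn 5.98 and Esr1 6.51 (both at 0 UMIs in that class, so that these fitted values are no bounds), Kit 0.59, Krt8 0.89, Ndufa5 0.075, Rad50 0.94, Tap2 0.12, Trp63 -0.57, Vim -0.35, Wnt10a -0.25 and Wnt4 0.62. Without gland 1 replicate 1, Kit turned to 0.26 and Vim to -0.095, and without replicate 2 they kept their direction (-0.76 and 0.65). Without replicate 2, Glycam1 turned to 5.53, Krt14 to 0.17 and Krt18 to -0.29, and without replicate 1 they kept theirs (-9.29, -0.37 and 0.63). The 5.53 was fitted with 0 gland UMIs of Glycam1 and is no bound. Krt14 was 0.038 with no filter, and without Vim-positive members 0.54, where Krt18 was -0.087. Krt18 was -0.26 without members holding stromal UMIs and -0.10 with thinned sums. Vim was -0.068 without the deepest members, -1.05 without cycling members and -0.58 without stromal-like clusters. No paired analysis was possible because the replicate numbers were given in accession order and pair no libraries. With 1 mouse, the spread of these differences between animals was not measured. Gland 1 replicate 2 held 75 cells, and a gene with few UMIs in the gland may be present below detection.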
